A study of Mus musculus with 6 samples.

Results

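Galectins, S100 proteins and annexins were examined in parental MC38 cells through 9 of their genes: the galectin genes Lgals1 and Lgals3, the S100 genes S100a4, S100a6, S100a10 and S100a11, and the annexin genes Anxa1, Anxa2 and Anxa5. The genes were taken by symbol from a count table of 24181 genes, and all 9 were found. They were picked because Lgals1 and S100a6 are among the most abundant transcripts of these cells, so their levels are given as a description, with no test. MC38 is a mouse colon adenocarcinoma line, grown here in culture medium and sequenced from the 3' ends of its transcripts. The labels give 3 parental samples (genotype WT) and 3 samples of MC38 cells expressing STING-N153S, a substitution in the innate immune adaptor STING. The series compares these groups. The samples with STING-N153S are not analysed here: by name, the remaining columns of the count table cannot be tied to single samples. So every value below is for parental cells, and no difference between the groups is given. Parental cells are 1 line in culture, without the other cells of a tumour.

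Galectins are lectins that bind galactose-containing glycans on glycoproteins, and they leave the cell without a signal peptide. Outside the cell they crosslink receptors, and Lgals1 protein from tumours is known for its action on T cells. S100 proteins are small EF-hand proteins that mostly act as dimers and change shape when they bind calcium. Annexins bind acidic phospholipids of membranes in a calcium-dependent way. The families meet in known complexes, of S100a10 with Anxa2 and of S100a11 with Anxa1, which link membranes to each other or to the actin cortex.

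The 3 parental libraries held 3210024 to 4020023 counts and 16224 to 16892 genes with a count. Levels are counts divided by the library total and scaled to 1000000 counts (CPM), given as mean ± SD over the libraries (n = 3), and 3 counts, taken as the floor, are 0.746 to 0.935 CPM in 1 library and 0.283 CPM over all 3. The deposited annotation calls the libraries biological replicates, but whether each is a culture of its own is not stated, so part of their spread may be technical. Between the 3 libraries 311 genes varied beyond counting error. With 1 library left out, 61 varied without replicate 3, 213 without replicate 1 and 274 without replicate 2, so replicate 3 stood apart over all genes. A test on 2 libraries detects less than one on all 3. Of 16 intestinal epithelial markers 8 were analysed, 0 of them reached 1 CPM, and their summed level was 0.595 to 0.935 CPM. The highest was Fabp1, with 0, 2 and 2 counts, while Krt7 and Krt19 had 1 count each. Krt8 had 0, 1 and 0 counts and Cdx1, Lgr5 and Fabp2 had none, so an epithelial origin is not seen in these 8 markers. The other 8 of the list could not be read here, so the list as a whole is not judged. Fibroblast markers reached 1 CPM in 5 of 8 genes analysed (182 to 206 CPM summed), led by Col3a1 with 115 ± 8.80 CPM, Dcn with 52.1 ± 5.48 CPM and Pdgfra with 12.8 ± 2.69 CPM (SD, n = 3). The rest of that list was lower, with Acta2 at 8.39 ± 0.84 CPM and Col1a1 at 3.58 ± 1.28 CPM (SD, n = 3). Col1a2 had 0.991 ± 0.723 CPM, Pdgfrb 0.667 ± 0.463 CPM (SD, n = 3) and Lum 1 count in all. Myeloid markers summed to 23.4 to 25.6 CPM, most of it Cd14 (22.1 ± 0.81 CPM), with Fcgr3 at 0.974 ± 0.497 CPM and Cd68 at 0.925 ± 0.324 CPM (SD, n = 3). Csf1r and Lyz2 had 0 counts, and Ptprc had 1 count in all. Lymphocyte and endothelial markers (5 and 4 genes analysed) stayed under 1 CPM each.

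The 9 genes together took 1.89%, 1.82% and 1.85% of the counts of parental replicates 1 to 3, a mean of 1.85% ± 0.03 (SD, n = 3). Their levels covered a range from Lgals1 at the top to Lgals3 at the bottom. Both of these are galectins, and the S100 and annexin genes lay between them. All 9 were above 100 CPM, a level reached by 8.54% of the genes in the table, and 5 of them were above 1000 CPM, a level reached by 131 genes in all. In the order by mean CPM, the lowest library of each gene was above the highest library of the next gene at every step, so that no neighbours in the order overlapped. These are levels over whole cultures, in which fewer cells with a transcript and less of it per cell cannot be told apart.

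**Figure D1:**
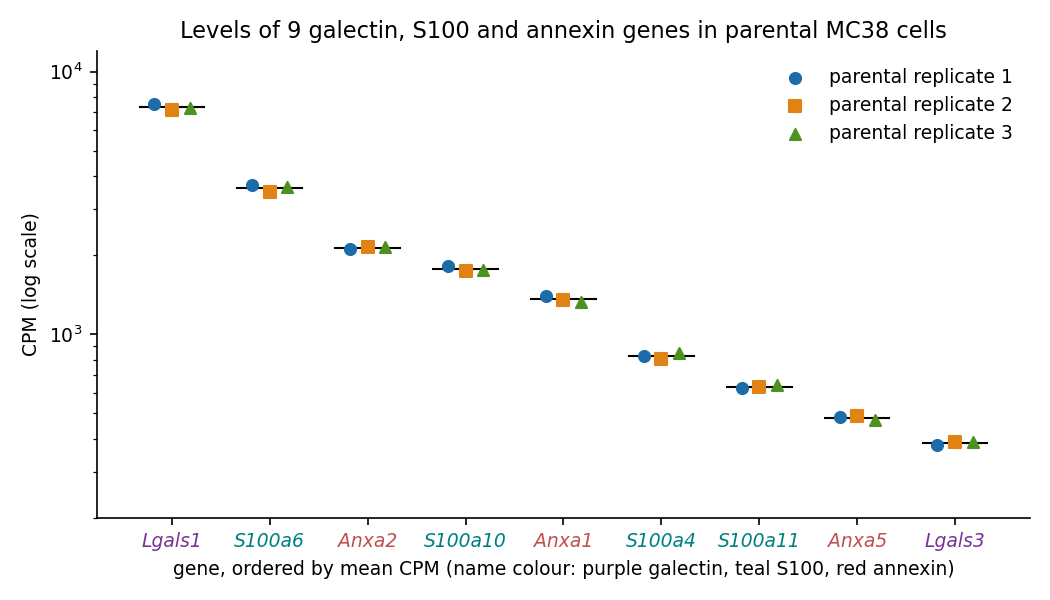
CPM (log axis) of the 9 genes in each parental library (coloured points) with the mean over 3 libraries (black bar), ordered by mean. The points of neighbouring genes do not overlap at any step, from Lgals1 at 7324 CPM to Lgals3 at 386 CPM.

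Lgals1, a galectin with a single carbohydrate-binding domain that forms homodimers, lies on chromosome 15 (78926725 to 78930465, plus strand, RefSeq on GRCm38.p6). It had 25244, 28802 and 23405 counts in parental replicates 1 to 3, or 7516, 7165 and 7291 CPM (mean 7324 ± 178, SD, n = 3). Replicate 1 was the highest and replicate 2 the lowest. Lgals1 was the second most abundant of all genes. Lgals3, the chimera-type galectin whose N-terminal part lets it form oligomers, lies on chromosome 14 (47373860 to 47386167, plus strand). It had 1275, 1569 and 1243 counts, or 379.6, 390.3 and 387 CPM (mean 386 ± 5.51, SD, n = 3). Here replicate 1 was the lowest, and the gene was in place 497 among all genes. Within each library Lgals1 had 19.8, 18.4 and 18.8 counts for each count of Lgals3 in replicates 1 to 3, a mean ratio of 19.0 ± 0.74 (SD, n = 3). The exact (Clopper-Pearson) 95% interval of the pooled ratio, 18.4 to 19.6, covers counting error only, as do all intervals and floors here.

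Of the 11 genes listed for the galectin family 8 were analysed. Lgals1 took 94.3% ± 0.20 of the family's counts and Lgals3 4.97% ± 0.18 (SD, n = 3), which left under 1% for the other 6. The tandem-repeat galectin Lgals8 had 141, 165 and 136 counts, or 41.8 ± 0.68 CPM, and Lgals9, also a tandem-repeat galectin, 20, 30 and 26 counts, or 7.17 ± 1.10 CPM (SD, n = 3). The galectin-like gene Lgalsl had 7.55 ± 0.64 CPM (SD, n = 3). Lgals8 overlaps Heatr1, and Lgals2 and Lgals7 overlap other genes, on the opposite strand, and the sources used here do not say whether counting used strand. Lgals7, a galectin of stratified epithelia, had 4, 1 and 1 counts, and Lgals2 and Lgals4, known from the gut epithelium, had 2 counts and 1 count in all. The values of Lgals2 and Lgals4 were below the pooled floor of 0.283 CPM.

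**Figure D2:**
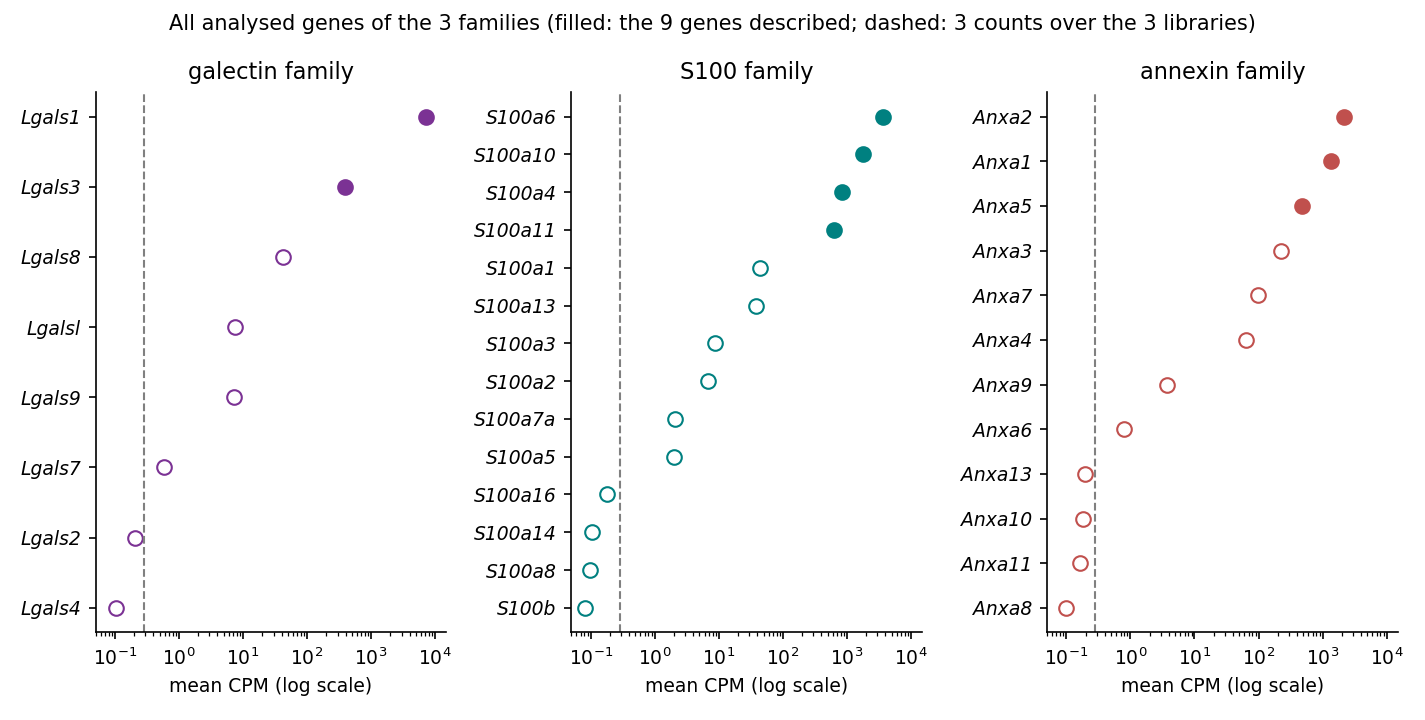
Mean CPM (log axis, 3 parental libraries) of every analysed gene of the galectin, S100 and annexin families, with the 9 genes described drawn filled. The filled points lie at 386 CPM and above, and the highest open point is Anxa3 at 221 CPM; the dashed line marks 3 counts over the 3 libraries, 0.283 CPM.

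S100a6 (calcyclin) was the most abundant S100 transcript and the second of the 9 genes. It had 12472, 13992 and 11650 counts, or 3713, 3481 and 3629 CPM (mean 3608 ± 118, SD, n = 3). As for Lgals1, replicate 1 was the highest and replicate 2 the lowest. S100a10 (p11), which differs from other S100 proteins in not binding calcium and which pairs with Anxa2, had 6094, 7006 and 5631 counts, or 1814, 1743 and 1754 CPM (mean 1770.4 ± 38.4, SD, n = 3). S100a4, a binding partner of non-muscle myosin known for its link to metastasis, had 2779, 3237 and 2712 counts, or 827, 805 and 845 CPM (mean 826 ± 19.9, SD, n = 3). Here replicate 3 was the highest. S100a11, the partner of Anxa1, had 2100, 2536 and 2054 counts, or 625, 631 and 639.9 CPM (mean 632 ± 7.40, SD, n = 3). Its libraries lay closest together of the 9 genes, with a coefficient of variation of 1.17%, where counting error alone gives about 2.12%.

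These 4 genes held 98.5% ± 0.07 of the counts of the 14 S100 genes analysed, of 18 listed. S100a6 alone took 52.0% ± 0.44, S100a10 25.5% ± 0.31, S100a4 11.9% ± 0.23 and S100a11 9.11% ± 0.27 (SD, n = 3). Of the other 10 S100 genes, S100a1 had 44.7 ± 1.1 CPM and S100a13, whose product takes part in the release of proteins without a signal peptide, 38.2 ± 4.88 CPM (SD, n = 3). S100a3 had 8.59 ± 0.88 CPM and S100a2 6.77 ± 2.35 CPM (SD, n = 3). S100a3 and S100a2 overlap on the same strand, so how reads were split between them is uncertain. S100a7a had 2.06 ± 0.19 CPM and S100a5 1.98 ± 0.41 CPM (SD, n = 3). The alarmin S100a8, a marker of neutrophils and monocytes, had 1, 0 and 0 counts, and S100a14, S100a16 and S100b had 1 or 2 counts in all. These last 4 were below the pooled floor.

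The S100 genes analysed lie on chromosome 3, apart from S100b, in a cluster that runs over 181.6 kb from S100a1 to S100a9 (GRCm38.p6, RefSeq starts), with S100a11 and S100a10 at 3009 and 3044 kb from S100a1. S100a4 (90603770 to 90606045, plus strand) and S100a6 (90612894 to 90614414, plus strand) have S100a5 between them, which starts 435 bases after S100a4 ends and ends 1110 bases before S100a6 starts. The level of S100a5 was 1.98 CPM (8, 8 and 5 counts), between neighbours at 826 and 3608 CPM. The next gene after S100a6, S100a7a, lies 37511 bases away and had 2.06 CPM. S100a11 (93520496 to 93526288, plus strand) and S100a10 (93555117 to 93564645, plus strand) are adjacent protein-coding genes, 28829 bases apart, and here both neighbours were abundant, at 632 and 1770.4 CPM.

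**Figure D3:**
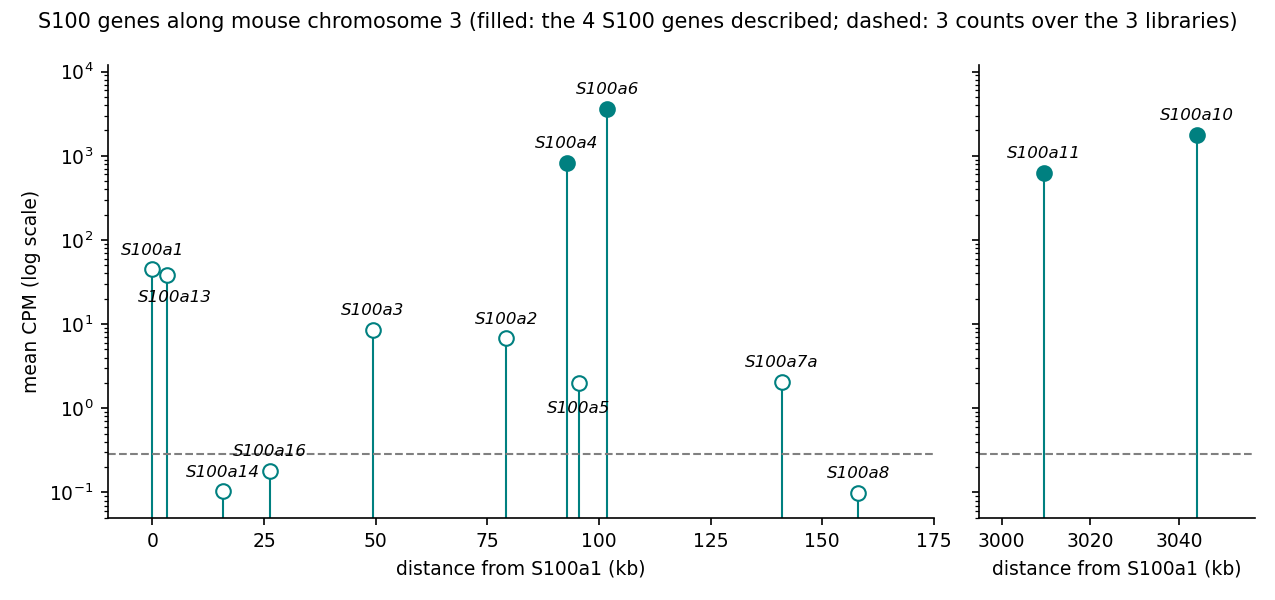
Mean CPM (log axis, 3 parental libraries) of the S100 genes of chromosome 3 against their distance in kb from S100a1, in the main cluster (left) and at S100a11 and S100a10 (right). S100a5 at 1.98 CPM stands between S100a4 at 826 CPM and S100a6 at 3608 CPM, and the dashed line marks 3 counts over the 3 libraries.

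The sequence before the start sites is shown for S100a4 and S100a6, the abundant genes on either side of S100a5, and for S100a11 and Anxa2. These were chosen after their motif matches were seen. Sequences are from RefSeq on GRCm38.p6, whose table gave windows for 7 of the 9 genes, not for Lgals1 and S100a10. They are on the plus strand, 5' to 3', at chr3:90603620-90603769, chr3:90612744-90612881, chr3:93520346-93520487 and chr9:69453533-69453619, and each ends before the first base that GENCODE M21 annotates as an exon. Capitals mark every match on either strand to the TATA motif TATAAA, to the AP-1 motif TGANTCA and to the GC box GGGCGG, which do not overlap each other here.
S100a4: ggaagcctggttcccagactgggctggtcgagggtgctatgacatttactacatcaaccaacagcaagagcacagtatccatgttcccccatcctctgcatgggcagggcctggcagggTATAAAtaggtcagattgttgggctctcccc
S100a6: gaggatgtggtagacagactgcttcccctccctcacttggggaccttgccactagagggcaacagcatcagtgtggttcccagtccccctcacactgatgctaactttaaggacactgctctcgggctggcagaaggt
S100a11: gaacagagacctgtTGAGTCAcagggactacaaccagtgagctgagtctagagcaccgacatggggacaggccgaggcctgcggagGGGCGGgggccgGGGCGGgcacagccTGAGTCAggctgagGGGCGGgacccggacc
Anxa2: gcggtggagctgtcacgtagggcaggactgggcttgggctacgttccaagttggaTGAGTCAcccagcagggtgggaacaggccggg
In the 250 bases before the start, TATAAA occurred in 3 of the 7 genes, 31 bases before the start of S100a4, 32 before that of Anxa1 and 17 before that of Anxa2. It is in 12.4% of the 32851 windows of that length in the RefSeq table. TGANTCA occurred in 2 of the 7, in S100a11 at 136 and 38 bases and in Anxa2 at 95 bases before the start, and is in 6.75% of all windows. GGGCGG occurred in S100a11, Anxa2 and Lgals3, against 32.7% of all windows. The TATA match of Anxa2 and its GC boxes at 48 and 24 bases lie past the first exon base of GENCODE M21. They are therefore not in the printed sequence, and the GC box at 190 bases lies before it. The S100a6 window held none of the 3 motifs. These are matches of letters only, and the libraries hold no reading of the promoters themselves.

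Anxa2, which binds the S100a10 dimer and is a docking site for plasminogen at the cell surface, was the most abundant annexin transcript and the third of the 9 genes. It lies on chromosome 9 (69453683 to 69491792, plus strand) and had 7066, 8636 and 6911 counts, or 2104, 2148 and 2153 CPM (mean 2135 ± 27.2, SD, n = 3). Its libraries differed by 1.02-fold between the highest and the lowest. Anxa1, the ligand of formyl peptide receptors that dampens inflammation, lies on chromosome 19 (20373434 to 20390671, minus strand). It had 4707, 5410 and 4261 counts, or 1401, 1346 and 1327 CPM (mean 1358 ± 38.5, SD, n = 3), highest in replicate 1. Anxa5, which binds phosphatidylserine and is used to stain dying cells, lies on chromosome 3 (36448923 to 36475887, minus strand), away from the S100 cluster. It had 1623, 1966 and 1510 counts, or 483, 489 and 470.4 CPM (mean 481 ± 9.54, SD, n = 3).

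The annexins were less concentrated in a single gene than the galectins. Anxa2 took 48.9% ± 0.79 of the counts of the 12 annexin genes, Anxa1 31.1% ± 0.79 and Anxa5 11.02% ± 0.16 (SD, n = 3), 91.1% ± 0.11 together. Anxa3 had 725, 889 and 726 counts, or 221 ± 5.16 CPM, Anxa7 99.2 ± 3.12 CPM and Anxa4 63.1 ± 5.86 CPM (SD, n = 3). Anxa9 had 3.77 ± 0.43 CPM (SD, n = 3) and shares its locus with genes on both strands, so its value is uncertain. Anxa6 had 5, 1 and 2 counts, or 0.787 ± 0.636 CPM (SD, n = 3). Anxa11 had 0, 2 and 0 counts, Anxa10 and Anxa13 had 2 counts each over the libraries and Anxa8 had 1, all below the pooled floor. No source used here gives how reads matching several genes were counted, so a count near 0 does not show that the RNA was absent.

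Near-identical copies could take reads from the 9 genes. The last 400 bases of each gene's longest coding transcript were searched against all GENCODE M21 transcripts for matches of at least 95% identity over at least 60 bases. For 7 of the 9 genes no other gene matched. S100a11 matched 2 processed pseudogenes, Gm12854 and Gm7665, which together had 12 counts against 6690 of S100a11. S100a4 matched Gm42674, a gene that overlaps S100a3 and S100a4 on the same strand and was not analysed here, so the count of S100a4 is uncertain to that extent.

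The pairs of genes whose proteins form complexes were compared within each library, which removes the library total from the comparison. The ratio of S100a10 to Anxa2 was 0.862, 0.811 and 0.815 in replicates 1 to 3, a mean of 0.829 ± 0.029 (SD, n = 3), with an exact 95% interval of the pooled ratio from 0.812 to 0.845. Anxa2 was thus the higher of the pair in 3 of 3 libraries on the count scale. S100a11 to Anxa1 gave 0.446, 0.469 and 0.482, a mean of 0.466 ± 0.018 (SD, n = 3), with an interval from 0.452 to 0.479. Replicate 1 lay below that interval and replicate 3 above it, and in the S100a10 pair replicate 1 lay above its interval and replicate 2 just below it. These intervals are for the counts pooled over 3 libraries, and are narrower than the counting error of 1 library. Single ratios outside them are therefore not shown to depart beyond counting error. S100a6 exceeded S100a4 in 3 of 3 libraries, with 4.49, 4.32 and 4.30 counts for each, a mean of 4.37 ± 0.10 (SD, n = 3). Among the annexins, Anxa2 had 1.57 ± 0.06 counts for each count of Anxa1 and 4.44 ± 0.12 for each of Anxa5 (SD, n = 3).

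**Figure D4:**
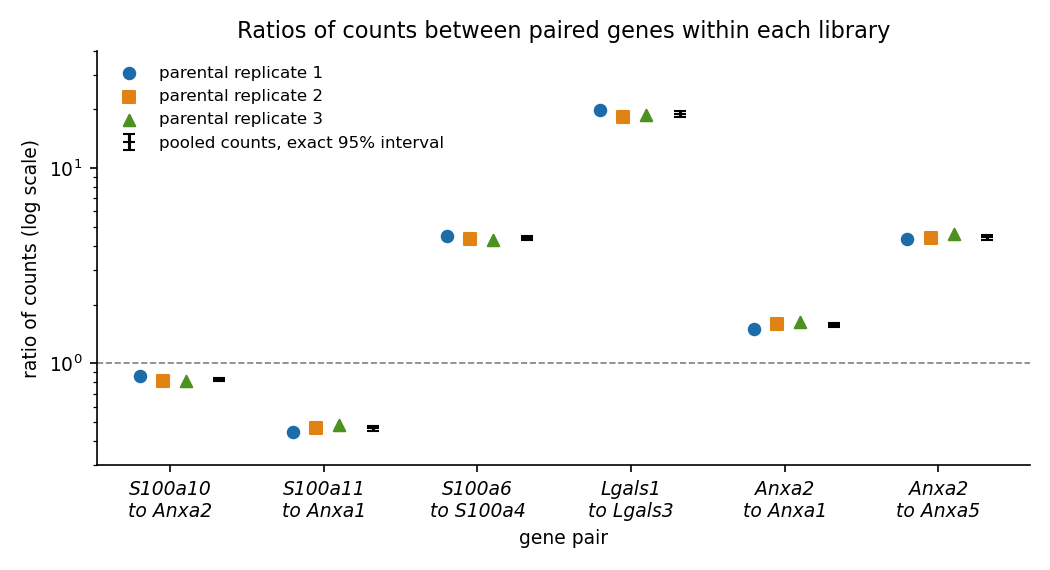
Ratio of counts (log axis) for 6 gene pairs in each parental library (coloured points), beside the ratio of the pooled counts with its exact 95% interval (black). S100a10 to Anxa2 and S100a11 to Anxa1 lie below 1 (dashed line) in all 3 libraries, and Lgals1 to Lgals3 is the highest at 19.0.

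Dividing counts by transcript length changes how the genes compare. In a 3'-end library each transcript gives fragments of its end, so counts were not divided by length in the values above. Per kilobase of the longest coding transcript, Lgals1 (9155 CPM per kb) and S100a6 (4935 CPM per kb) stayed first and second, and Anxa5 (278 CPM per kb) and Lgals3 (272 CPM per kb) stayed eighth and last. On that scale the short S100 transcripts moved up, S100a10 to 2585, S100a4 to 1658 and S100a11 to 1237 CPM per kb, while Anxa2 stood at 1475 and Anxa1 at 811 CPM per kb. The direction of S100a10 against Anxa2 and of S100a11 against Anxa1 is opposite after this division, by construction from the lengths. With counts from 3' ends, that reversal is not a measured difference. The statement that the annexin of each pair is higher is made for the count scale.

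The libraries were then compared with each other for departures beyond counting error, with a chi-square test on each gene and Benjamini-Hochberg adjustment over 11118 genes. This compares libraries, not conditions. Over all genes 2.8% were called (311 of 11118). Of the 9 genes 2 were called, Lgals1 (adjusted p = 8.2e-09 by the chi-square test) and S100a6 (adjusted p = 4.0e-07). Abundant genes let the test see small differences, and among the 497 genes at or above the level of Lgals3 the share called was 26.4%, so 2 of 9 is near that background. The differences were small, 1.05-fold between the highest and lowest library for Lgals1 and 1.07-fold for S100a6. Replicate 1 lay 3.40% above the expected count of Lgals1 and 3.82% above that of S100a6, and replicate 2 stood at -2.60% and -3.85% from it.

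S100a10 and Anxa1 also had their highest value in replicate 1, 3.22% and 3.86% above the expected count, but did not pass the adjusted test (adjusted p = 0.162 and 0.135 by the chi-square test). The remaining 5 genes had adjusted p-values of 0.489 (S100a4) to 0.974 (Lgals3) by the same test. Without replicate 1, 213 genes were called in all and 0 of the 9, with adjusted p = 0.444 for Lgals1 and 0.0537 for S100a6 by the chi-square test. Without replicate 2, of 274 genes called 3 were among the 9, since Anxa1 was called as well (adjusted p = 0.0126 by that test). Without replicate 3, 61 genes were called in all, and Lgals1 (adjusted p = 7.4e-07 by that test) and S100a6 (7.8e-06) were 2 of them. The share called among equally abundant genes is not given for these left-out tests. So their counts of 0, 3 and 2 among the 9 cannot be set beside a background. Of the other genes of the 3 families, 3 galectins, 6 S100 genes and 4 annexins could be tested. Of these 0 were called by the chi-square test, where 2.8% of all genes tested were called. By pairwise exact binomial tests 0 were called as well, and 0 had an unadjusted chi-square p below 0.05. The share of all genes at that unadjusted level is not given here. These genes were less abundant than the 9, so the test sees only larger differences in them, and 0 called is not a result about the families.

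**Figure D5:**
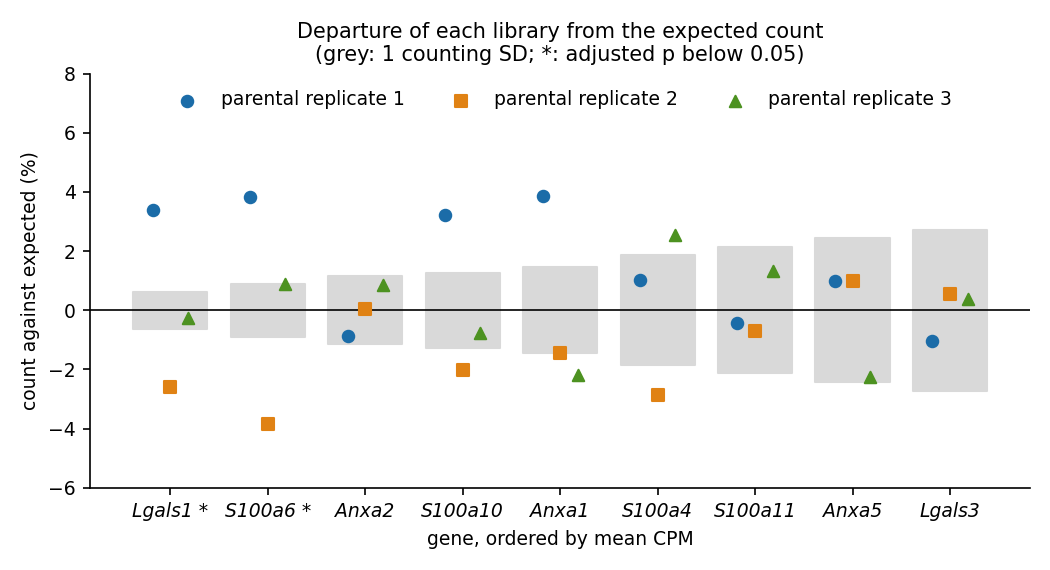
Percent difference between the observed count and the count expected from library size (y axis) for the 9 genes in each parental library. Grey boxes span 1 SD of counting error, and stars mark Lgals1 and S100a6, whose replicate 1 lies 3.40% and 3.82% above the expected count.

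Genes listed as partners of these proteins, or as related to them, were counted in the same libraries. Of 20 galectin ligands and N-glycan branching genes analysed, 17 had at least 1 CPM and 8 at least 100 CPM, led by the tetraspanin Cd63 with 1901 ± 64.3 CPM, the glycoprotein basigin (Bsg) with 663 ± 38.3 CPM and the lysosomal Lamp1 with 581 ± 32.5 CPM (SD, n = 3). Lgals3bp, a secreted ligand of Lgals3, had 15.1 ± 0.89 CPM (SD, n = 3), and was picked by name after its value was seen. Of 9 S100 partners and receptors, 8 had at least 1 CPM. The S100a6-binding protein gene Cacybp had 880.5 ± 24.6 CPM, the scaffold Ahnak, which binds the complex of S100a10 and Anxa2, 432 ± 22.4 CPM and the chaperone-associated Sugt1 139.5 ± 8.43 CPM (SD, n = 3). Myh9, the myosin bound by S100a4, had 95.9 ± 4.29 CPM (SD, n = 3). The receptor gene Ager had 0, 1 and 1 counts and Tlr4 2.82 ± 1.16 CPM (SD, n = 3), and these 3 were also picked after their values were seen.

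Of 10 genes analysed from the list of annexin partners, 9 had at least 1 CPM. The highest were the actin gene Actb with 4649 ± 176 CPM, Ahnak, and the chromatin remodeller Smarca4 with 409 ± 35.3 CPM (SD, n = 3). Whether the Smarca4 product binds an annexin was not tested here. Of 8 genes of plasminogen activation, 6 reached 1 CPM: the plasminogen-binding enolase Eno1 had 388 ± 19.97 CPM, the plasminogen receptor Plgrkt 83.4 ± 2.63 CPM and the urokinase receptor Plaur 64.2 ± 3.27 CPM (SD, n = 3). Of 13 membrane repair genes, 12 reached 1 CPM, led by Cav1 with 236 ± 4.60 CPM, Ehd1 with 205 ± 9.5 CPM and Cavin1 with 142 ± 10.9 CPM (SD, n = 3). Of 17 other EF-hand genes, 16 reached 1 CPM, and 10 reached 100 CPM. In these 6 lists, genes called as varying between libraries by the chi-square test, beside 2.8% of all genes tested and 26.4% of those at or above the level of Lgals3, were 3 of 17 tested among galectin ligands (Bsg, Cd63 and Mgat4b), 2 of 9 among annexin partners (Actb and Smarca4), 2 of 12 in membrane repair (Chmp4b and Myof; 1 by pairwise exact binomial tests) and 1 of 16 among EF-hand genes (Calm2). Among S100 partners 0 of 8 were called by either test, with 2 at an unadjusted p below 0.05. In plasminogen activation 0 of 6 were called, with 0 at that level. The share of all genes at that unadjusted level is not given here.

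The analysed genes next to Lgals1, Lgals3 and the annexins in chromosome order had lower counts. So do most genes, since the 9 were picked for abundance and 97.9% of all genes lie below Lgals3. Lgals1 lies between Pdxp, 7208 bases before it, and Nol12, 4468 bases after it, which had 44.5 and 107 CPM beside 7324 CPM. Lgals3 lies next to Dlgap5, with 63.5 CPM, and Mapk1ip1l, with 24.4 CPM. Anxa1 stands between Rorb (10, 9 and 12 counts) and Aldh1a1 (4, 7 and 4 counts), both far away, and Anxa2 between Ice2, with 12.2 CPM, and Foxb1, with 0 counts. Next to Anxa5, 50 bases away, 1810062G17Rik had 1, 7 and 1 counts. These are the adjacent protein-coding genes of RefSeq, taken by position.

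For each of the 9 genes the curated genes with the most similar profile were taken, by the root mean square difference in log2(CPM + 1) over the 3 libraries, which mostly reflects level. Nearest to Lgals1 were the mitochondrial ribosomal RNA mt-Rnr2, at a difference of 0.18, and the thioredoxin gene Txn1, at 0.37. For S100a6 they were the ribosomal protein genes Rps18 and Rpl32 (0.05 and 0.08), for S100a10 Rps15a and Rpl26 (0.02 each), and for Anxa2 Rpl23a and the ribosome-bound scaffold Rack1 (0.02 and 0.03). Nme1 and Rpl36 were nearest to Anxa1 (0.04 each), and Rps10 and the initiation factor gene Eif5 to S100a4 (0.01 and 0.02). The proteasome gene Psmd7 and Gspt1 were nearest to S100a11 (0.01 each), Eloc and Zfp706 to Anxa5 (0.01 each), and the proteasome gene Psmc6 and Nop56 to Lgals3 (0.01 and 0.02). Lgals1 stood furthest from its nearest gene among the 9.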

How the data were processed

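First-strand primers (oligo-dT) carried a barcode for the sample and a molecular identifier, and only fragments from 3' ends were amplified, as the labels' protocols describe. Deposited were whole-number counts per gene, which per the file headers were made from untrimmed reads against GRCm38 and GENCODE M25, with Picard 2.18.26, STAR 2.7.5b and Drop-seq tools 1.12. No source used here gives whether counts were collapsed by molecular identifier; otherwise amplification adds to the spread.

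The 3 columns named wild type were taken as parental replicates 1 to 3, by genotype and number. The other 6 columns are named as 2 sets of 3 and could not be tied to the 3 STING-N153S samples by name, so they were not used, and the planned edgeR test between groups was not run. The genes and lists were chosen with earlier results of these data known. Named genes were all 9, the rest of their families, the 3 highest of each other list and the 2 nearest profiles of each. Chromosome neighbours, near-identical copies and motif matches were added later. Defining markers at or near 0 counts (Krt8, Cdx1, Lgr5, Fabp2, Csf1r, Lyz2 and Ptprc) were named after their values were seen. The same holds for the fibroblast markers beyond the 3 highest. The highest EF-hand genes are not reported here.

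CPM used library totals. The test between libraries took expected counts from median-ratio sizes (DESeq2 1.42.0), at least 5 expected in every library and a false discovery rate of 0.05, and was checked on simulated counts. Other tools were edgeR 4.0.16, R 4.3.3, Python 3.11.15, scipy 1.17.1, statsmodels 0.14.6 and BLAST 2.17.0.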

Additional observations from a re-analysis of the deposited data

How the results depend on the processing

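The order of the 9 genes by level was the same with TMM, median-ratio and upper quartile scaling. It was also the same with both other library totals and without each replicate in turn. All of these scale or drop whole libraries, and the order was the same within each library, so they could not change it. Per kilobase of transcript the order of the 9 genes changed, and 4 of 9 kept their place, by construction from the lengths. Their summed level, 18519 CPM, was 20399 CPM when the 20 highest genes were taken out of the totals and 19072.5 CPM when mitochondrial and ribosomal RNA genes were, since a smaller total raises every CPM. Leaving out 1 library gave 18347 to 18680.3 CPM. Under the other 5 scalings, 28 of 45 values of single genes moved by less than 1 SD and the other 17 moved with the smaller totals.

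With 1 library left out, 61 to 274 genes were called (61 without parental replicate 3) and 0 to 3 of the 9 genes (0 without parental replicate 1, 3 without parental replicate 2). Fewer libraries give the test less to detect, and the share called among equally abundant genes is not given for these tests. Other scalings, expected-count minimums and pairwise binomial tests gave 274 to 327 genes, and 2 of the 9 each time. Ratios within libraries moved by less than 1 SD when any 1 library was left out. With 3 libraries this holds for any values, so it does not show that the ratios are stable.

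The group comparison and its alternatives (DESeq2, no filter, replicate block, left-out replicates) were not run. No paired analysis was possible because no STING-N153S library was analysed beside the parental ones. A level under 3 counts, 0.283 CPM over the 3 libraries, cannot be told from 0 at this depth.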
